A study of Mus musculus with 11 samples.

Results

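The genes described here are the alpha-defensins, taken as every gene named Defa followed by a digit, with Mmp7, Pla2g2a and Lyz1, in the colon of mice with colitis-associated tumors. They were chosen by name and number 24 of the 7868 genes listed. Paneth cells are secretory cells at the base of small-intestinal crypts. Their granules hold alpha-defensins (called cryptdins in the mouse), small cationic peptides that kill bacteria, together with the P form of lysozyme (Lyz1) and the bactericidal secreted phospholipase Pla2g2a. In the mouse, matrilysin (Mmp7), a metalloproteinase of the same granules, cleaves the inactive pro-defensins into active peptides. Wnt signalling at the crypt base drives the Paneth programme, and the healthy mouse colon holds few or no such cells.

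RNA came from 11 female wild-type mice, from colonic tumors of 7 treated with AOM/DSS and from the colon of 4 naive mice. Azoxymethane (AOM), a carcinogen, was injected at 10 mg/kg, and from day 7 dextran sulfate sodium (DSS), which injures the colonic lining, was given in the drinking water at 1.5% in 3 cycles of 5 days, each followed by 16 days of recovery, until day 70. The study names C57BL/6J as its wild-type strain, whereas the sample labels give only wild type. The study describes the AOM/DSS tumors behind these libraries as full-thickness, and the heading of the deposited table says so of the naive colon. The deposited table compares AOM/DSS tumor with naive colon and holds the authors' normalized mean of each group for 7868 genes, with no value per mouse. AOM/DSS colon stands below for this tumor tissue. The 24 Paneth-type genes among them are 21 defensins, Mmp7, Pla2g2a and Lyz1. No spread between mice, standard error or test could therefore be computed, and the values below are the authors' means of 7 AOM/DSS and 4 naive samples. The table lists only genes for which the authors' unadjusted p was under 0.05.

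All 24 listed Paneth-type genes had a higher mean in AOM/DSS than in naive colon. Pla2g2a reached 398 in AOM/DSS colon, against 1.09 in naive colon. Lyz1 reached 320 in AOM/DSS colon, against 7.38 in naive colon. The other 22 members, Mmp7 and the 21 listed defensins, were listed at 0 in naive colon, which the table writes as 0.0001. Among all listed genes, 57.3% had the higher mean in AOM/DSS, 31.7% were at least 2-fold higher there, 17.1% were at least 2-fold lower and 6.35% were at 0 in naive colon. A gene at 0 in naive colon can enter this table only by being high in AOM/DSS colon, so the shared direction of these 22 genes is fixed by the listing and carries no separate information. In bulk tissue, a larger number of expressing cells and more RNA per cell cannot be told apart.

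**Figure D1:**
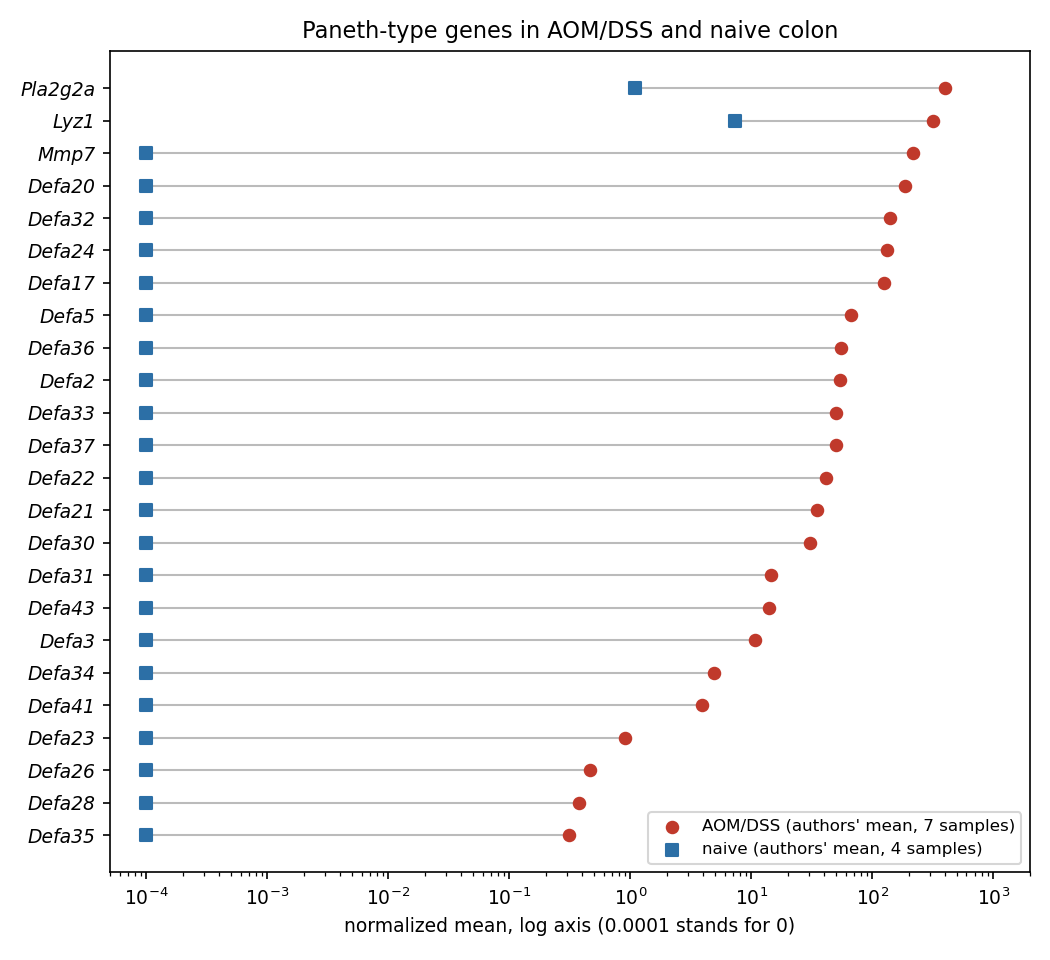
The authors' normalized means of the 24 Paneth-type genes on a log axis, with 1 line per gene joining the AOM/DSS mean (red circle, 7 samples) to the naive mean (blue square, 4 samples). 22 genes sit at 0.0001, the value that stands for 0, in naive colon, while Pla2g2a and Lyz1 stand at 1.09 and 7.38 there, and no spread is drawn because the table holds none.

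The lowest means in the table show what a 0 means here. Among the lowest naive means, 4 values recurred in 10 to 22 genes each, as many values as there are naive libraries. These values and their sums accounted for 77 of the 94 naive means of up to about 2 reads. The tolerance was 2e-06, after taking off the 0.0001 that every mean carries. In AOM/DSS colon, 6 values recurred in 3 to 7 genes each and accounted for 32 of 40 such means. Values were kept from 10 genes up in naive and from 3 up in AOM/DSS colon, and their number depends on these limits. If each value stands for 1 read in 1 library, 1 read in 1 AOM/DSS library adds 0.0132 to 0.0163 to the AOM/DSS mean, where 6 such values were found for 7 libraries. On that reading, 1 read in 1 naive library adds 0.0268 to 0.0334 to the naive mean. A defensin at 0 in naive colon then had no read in the 4 naive libraries, which allows a naive mean of up to 0.1003 (3 reads, counting error only). The lowest defensin, Defa35, had a mean of 0.312 in AOM/DSS colon, worth 19 to 24 reads over all 7 libraries. Defa20, the highest, had a mean of 186 in AOM/DSS colon, worth 11406 to 14122 reads. Not every mean is a whole number of reads, since 2 AOM/DSS and 8 naive means above 0 lay below the value of 1 read. How the reads were spread over the 7 AOM/DSS mice cannot be read from a group mean.

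The defensins differed 596-fold among themselves in AOM/DSS colon, by their authors' means. Defa20 led with 186, followed by Defa32 with 140, Defa24 with 132 and Defa17 with 124, and these 4 genes held 57.3% of the summed defensin mean of 1016. In naive colon all 21 were at 0, and the log2 ratio of the sums with 1 added to both was 9.99. Another 8 copies lay between 30 and 100. Defa5 had a mean of 66.3, Defa36 of 55.4, Defa2 of 54.5, Defa33 of 50.2 and Defa37 of 50.004 in AOM/DSS colon. Defa22 followed with 41.5, Defa21 with 35.1, which is also the median of the 21, and Defa30 with 30.7. The middle of the range held 3 copies, namely Defa31 at 14.6, Defa43 at 14.1 and Defa3 at 10.7. Defa34 at 4.87 and Defa41 at 3.90 came next. The lowest 4 copies had under 1 unit each in AOM/DSS colon, with Defa23 at 0.909, Defa26 at 0.464, Defa28 at 0.374 and Defa35 at 0.312. All of these 21 genes were at 0 in naive colon. Without a spread between mice, neighbours in this order cannot be called different. RefSeq holds 28 mouse genes named Defa with a digit, and the 7 not listed were Defa25, Defa27, Defa29, Defa38, Defa39, Defa40 and Defa42. Those 7 either had a p above the listing limit or were not tested. For comparison with the 21 of 28, 17.9% of the 21900 protein-coding genes in RefSeq were listed with the higher mean in AOM/DSS. The 21 copies are not independent in this count, because many share their transcript ends and they form 14 groups and lone copies, as described below. Reads of 1 copy may thus have helped to list another.

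Among the 500 genes at 0 in naive colon, Mmp7 had the highest AOM/DSS mean, at 217. Defa20 ranked 4, Defa32 ranked 5, Defa24 ranked 7 and Defa17 ranked 9. Paneth-type genes held 5 of the 10 highest and 13 of the 30 highest places, and 22 of all 500. Near-identical copies, such as Defa20 and Defa32, are counted here as separate genes. All 500 were listed only by being high in AOM/DSS colon, so these counts describe the level and nothing more. The median AOM/DSS mean of all 500 was 0.466, close to that of Defa26. The remaining places in the highest 10 were held by Krt6a at 216, a keratin of stratified epithelium, by the metallothionein Mt4 at 188, by the antibacterial lectin Reg3g at 139, by Calm4 at 127, a calmodulin-like gene of skin, and by the cystatin Cstdc5 at 118, all at 0 in naive colon. The genes closest to Mmp7 in both means were thus Krt6a and Mt4, with log2 distances of 0.0096 and 0.21, and the third was Defa20, at 0.22. For Defa20 they were Mt4, Krt6a and Mmp7. Of the 63 nearest places of the 21 defensins, 18 were held by other defensins and the rest by genes such as Sprr3, nearest to Defa30, and Reg3g, nearest to Defa32. These distances rest on 2 group means only and describe the level, not a pattern across mice.

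**Figure D2:**
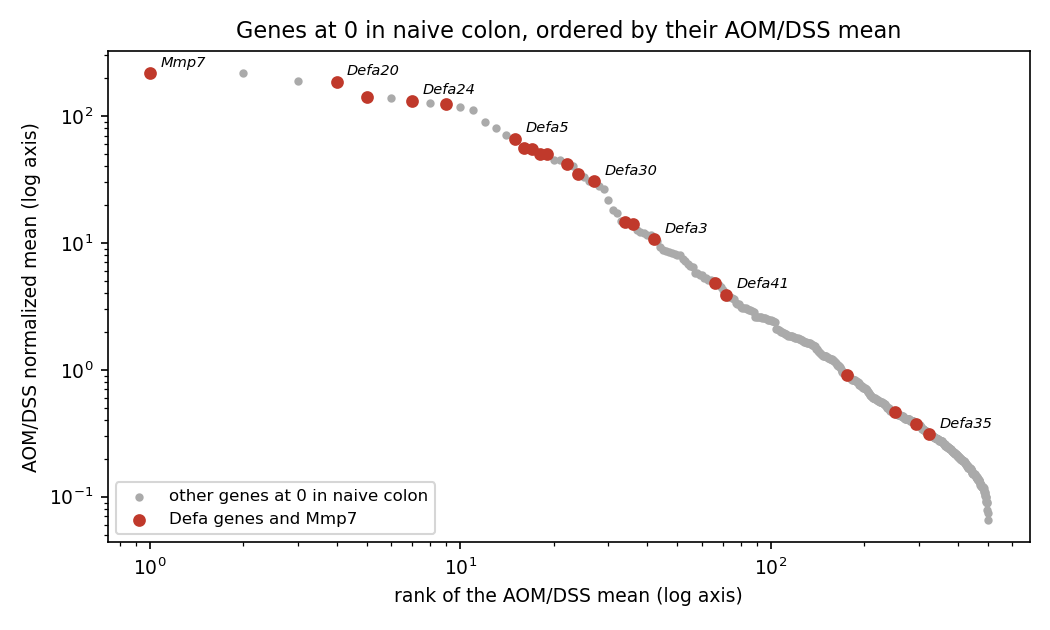
The 500 genes at 0 in naive colon, ordered by rank of the authors' AOM/DSS mean (both axes log). Red points are Mmp7 and the 21 listed defensins and grey points the other genes; Mmp7 holds the first place at 217, and the defensins run down to Defa35 at 0.312.

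The defensin genes lie side by side on chromosome 8, and many are near-identical copies, which bears on the reading of each copy's mean. In mm10 with GENCODE M21 annotation, the 21 listed copies span chr8:21025545-21735471, or 709.9 kb, on the plus strand except Defa43, with Defa21 at one end and Defa24 at the other. QuantSeq reads come from the 3′ end of the transcript, so the last 300 bases of each annotated transcript were cut into 50-base windows and searched for in the transcripts of all other genes. The median defensin shared 95.6% of its windows with at least 1 other gene, and with 75-base windows it shared 92.0%. All windows were shared in 9 copies, namely Defa2, Defa20, Defa23, Defa31, Defa32, Defa33, Defa34, Defa36 and Defa37, whose means made up 54.8% of the defensin sum in AOM/DSS colon. Defa24 was the least shared at 27.5%, followed by Defa26 at 39.4%, Defa41 at 41.4% and Defa30 at 41.8%. Mmp7 and Pla2g2a shared none of their windows with another gene, and Lyz1 shared 21.9% with Lyz2. How reads that match several copies were divided among them is not given in the sources used here, so the mean of a single copy is uncertain wherever its end is shared, whereas the sum over a group of copies depends less on that division.

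Copies were linked where they shared at least 75% of their windows in both directions, and chains of links formed 5 groups. This left 14 groups and lone copies in place of 21 genes. Inside a chain a pair can fall below 75%, as for Defa20 with Defa33 and Defa2 with Defa32, each at 71.3%. Defa20, Defa32, Defa2 and Defa33 summed to 431 in AOM/DSS colon, the largest group. Defa17 and Defa3 summed to 135, Defa36 and Defa37 to 105, Defa5 and Defa34 to 71.2, and Defa31 and Defa23 to 15.6, each against 0 in naive colon. Taken as units, the Defa20 group therefore came first, then the Defa17 pair and Defa24 at 132.

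The authors' means inside a group could still lie far apart. Defa31 stood 16.1-fold above Defa23 in AOM/DSS colon, although their coding sequences did not differ at any of 279 bases and their last 300 bases shared every window. Defa5 stood 13.6-fold above Defa34, with 4 coding bases different and 99.6% of the windows of Defa5 shared. Defa17 stood 11.6-fold above Defa3, with no coding base different and 88.8% of windows shared. Defa36 and Defa37, also without a coding difference, were 1.11-fold apart. Within the Defa20 group, Defa20 was 3.42-fold above Defa2 and Defa32 was 2.79-fold above Defa33, each with 1 coding base different over 285. Whether these gaps are differences in expression or in the assignment of reads was not tested.

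**Figure D3:**
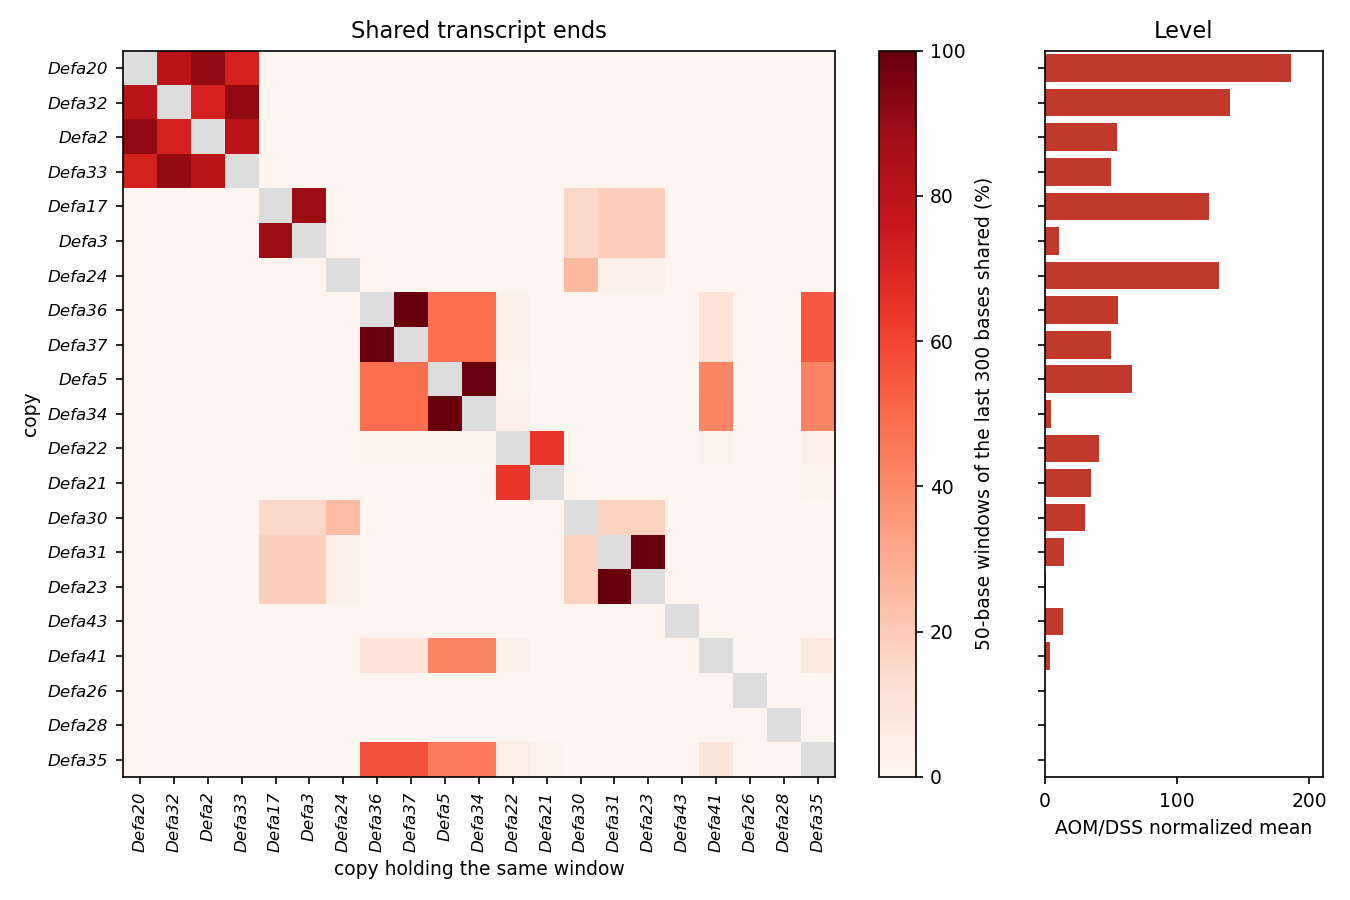
Left, the share of 50-base windows in the last 300 transcript bases of each defensin (row) that is also found in each other defensin (column), in percent, grey on the diagonal; right, the authors' AOM/DSS mean of the same copies, which were all at 0 in naive colon. Blocks of dark squares mark near-identical copies, such as Defa31 and Defa23, whose means of 14.6 and 0.909 differ although every window is shared.

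The letters show which copies can be told apart. The last 90 coding bases before the stop codon, which in most copies encode most of the mature peptide, took 12 forms among the 21 copies, and 4 of these forms were held by 13 copies. Defa43 stood apart, with 348 annotated coding bases and 69 of these 90 bases different from Defa24. The forms shown are given 5′ to 3′ on the coding strand from GENCODE M21 transcripts. In the Defa20 form (chr8:21510051-21510140), Defa20, Defa32, Defa2 and Defa33 were identical, so that these 4 genes cannot be separated in this stretch.
Defa20: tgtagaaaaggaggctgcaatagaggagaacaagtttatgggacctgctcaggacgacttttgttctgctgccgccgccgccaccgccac

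The next set has another coding length (279 bases) and is set against Defa24 (chr8:21735285-21735374), with capitals where a copy differs from it. Defa30 (chr8:21135411-21135500) differed at 1 base, Defa31 (chr8:21192362-21192451) at 6, Defa17 (chr8:21656549-21656638) at 7, Defa5 (chr8:21298189-21298278) at 22 and Defa22 (chr8:21163063-21163152) at 37. The Defa31 form was shared by Defa23, the Defa17 form by Defa3, and the Defa5 form by Defa34, Defa35, Defa36 and Defa37, while Defa21 differed from Defa24 at 38 bases.
Defa24: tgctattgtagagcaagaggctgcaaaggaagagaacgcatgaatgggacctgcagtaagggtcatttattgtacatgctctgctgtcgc
Defa30: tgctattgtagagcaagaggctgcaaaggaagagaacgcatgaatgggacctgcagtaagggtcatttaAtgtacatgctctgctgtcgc
Defa31: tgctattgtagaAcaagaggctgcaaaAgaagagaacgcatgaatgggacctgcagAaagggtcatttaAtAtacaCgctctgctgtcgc
Defa17: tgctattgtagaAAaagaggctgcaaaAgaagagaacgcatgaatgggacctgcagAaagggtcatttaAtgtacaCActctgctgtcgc
Defa5: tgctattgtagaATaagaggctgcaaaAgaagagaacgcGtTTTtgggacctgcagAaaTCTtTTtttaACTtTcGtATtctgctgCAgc
Defa22: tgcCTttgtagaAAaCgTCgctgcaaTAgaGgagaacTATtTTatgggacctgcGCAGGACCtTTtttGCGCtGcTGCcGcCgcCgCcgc

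By these forms the authors' means in AOM/DSS colon summed to 431 for the Defa20 form, 177 for the Defa5 form, 135 for the Defa17 form, 132 for Defa24, 30.7 for Defa30 and 15.6 for the Defa31 form, all against 0 in naive colon. Thus Defa24 and Defa30, which differ at 1 of these 90 bases, had AOM/DSS means of 132 and 30.7. Defa35 and Defa36, identical over these 90 bases, had AOM/DSS means of 0.312 and 55.4, and they shared 56.6% of the windows at their ends.

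The promoters of the defensin copies were also alike. RefSeq (GRCm38.p6) promoter entries, running from 250 bases before to 50 after a gene's start, were matched for 16 of the 24 members, 14 of them defensins. CTTTGAT, a form of the motif bound by the Wnt-pathway factors TCF and LEF, or its other-strand form ATCAAAG was found in 13 of the 14 defensin promoters, and in 9 of them more than 1 time, against 3.73% of all 32851 promoter entries. The related CTTTGAA, read on the opposite strand as TTCAAAG, was found in 0 of the 14, against 5.14% of all entries. TATAAA, read on the opposite strand as TTTATA and known as the core of the TATA box, was found in 13 of the 14, against 13.6% of all. TGANTCA, the AP-1 motif, was found in 3 of the 14, against 7.81% of all. Defa43 lacked CTTTGAT, and Defa28 lacked TATAAA. Neither strand form of any motif contains another motif, and both TCF and LEF forms differ in 1 base. The copies share ancestry, so their promoters are not independent, and a match is a description and not a binding site.

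The 250 bases before the start are shown for Defa20, the highest defensin, for Defa30 from the other coding form, and for Mmp7, with the motifs in capitals. The Defa20 promoter (chr8:21509008-21509257, plus strand) held ATCAAAG beginning 112 and 72 bases before the start and TATAAA 31 bases before it. The Defa30 promoter (chr8:21134400-21134649, plus strand) held 1 ATCAAAG, 142 bases before the start, and TATAAA 61 bases before it. The Mmp7 promoter (chr9:7691840-7692089, plus strand) held TGAGTCA, an AP-1 match, 63 bases before the start, and TATAAA 26 and 123 bases before it, while its CTTTGAT lay 5 bases after the start and is not shown.
Defa20: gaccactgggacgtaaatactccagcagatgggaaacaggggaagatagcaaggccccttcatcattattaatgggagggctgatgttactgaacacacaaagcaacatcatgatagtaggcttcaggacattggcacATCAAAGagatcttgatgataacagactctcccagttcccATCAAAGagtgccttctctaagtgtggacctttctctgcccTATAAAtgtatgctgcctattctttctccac
Defa30: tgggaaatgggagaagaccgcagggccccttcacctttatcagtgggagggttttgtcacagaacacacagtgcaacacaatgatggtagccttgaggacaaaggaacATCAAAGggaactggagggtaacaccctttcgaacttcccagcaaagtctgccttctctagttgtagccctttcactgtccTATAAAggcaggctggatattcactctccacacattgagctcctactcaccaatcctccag
Mmp7: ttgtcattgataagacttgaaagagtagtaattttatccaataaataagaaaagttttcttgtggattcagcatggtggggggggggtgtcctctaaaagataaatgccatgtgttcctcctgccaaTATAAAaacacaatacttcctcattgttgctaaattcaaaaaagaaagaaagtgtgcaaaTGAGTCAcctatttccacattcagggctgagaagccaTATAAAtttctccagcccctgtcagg

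Pla2g2a, Mmp7 and Lyz1 have transcript ends that are mostly their own, and their means can be read gene by gene. Pla2g2a (chr4:138831857-138835186, plus strand) had 398 in AOM/DSS colon and 1.09 in naive colon, a ratio of 365 and a log2 ratio of 8.51, or 7.58 with 1 added to both means. It had rank 210 among all listed AOM/DSS means. Its nearest genes were the neutrophil alarmins S100a9, at 397 in AOM/DSS colon and 1.08 in naive colon, and S100a8, at 451 in AOM/DSS colon and 1.50 in naive colon, with the acute-phase gene Saa3 between them. GENCODE types Pla2g2a as a polymorphic pseudogene and RefSeq as a transcribed pseudogene, since C57BL/6 mice, the strain of the reference genome, carry a disrupted allele. Its transcript level therefore gives no measure of enzyme. Mmp7 (chr9:7692090-7699585, plus strand) had 217 in AOM/DSS colon and 0 in naive colon, a log2 ratio of 7.77 with 1 added to both means.

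Lyz1 (chr10:117287797-117292868, minus strand) had 320 in AOM/DSS colon and 7.38 in naive colon, a ratio of 43.3. Lyz2, the lysozyme of macrophages and neutrophils, had 534 in AOM/DSS colon and 232 in naive colon. The Lyz1 mean was thus 0.599 of the Lyz2 mean in AOM/DSS colon and 0.0318 of it in naive colon. The genes nearest to Lyz1 were the secreted antiprotease-like Wfdc18 at 368 in AOM/DSS colon and 6.65 in naive colon, the glycoprotein Lrg1 and the neutrophil chemokine Cxcl5. Because Lyz1 shares 21.9% of its end with Lyz2, a part of the reads of either could be counted to the other.

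Most other listed Paneth-cell products had the higher mean in AOM/DSS colon as well. Of a list of 25 granule and secreted products, 20 were listed, among which 19 had the higher and 1 the lower mean in AOM/DSS, but that list holds 10 members, 8 of them listed at 0 in naive colon and so listed only by being high in AOM/DSS colon. Of its other 15 genes 9 were higher, 1 was lower and 5 were not listed. Among all listed genes, 57.3% were higher. Of those 9, Reg3g and Reg3b were at 0 in naive colon, so their direction was fixed by the listing. With both included, the median log2 ratio of the 10 listed ones (1 added to both means) was 4.79, against 0.36 over all listed genes. Itln1, the lectin intelectin, had 101 in AOM/DSS colon and 0.974 in naive colon. Ang4, a bactericidal ribonuclease of Paneth cells, had 82.5 in AOM/DSS colon and 0.830 in naive colon. The lectins Reg3g and Reg3b had 139 and 80.1 in AOM/DSS colon and were both at 0 in naive colon. Dmbt1, a mucosal scavenger protein, was the most abundant, at 1537 in AOM/DSS colon and 1122 in naive colon. Ttr, the thyroid-hormone carrier transthyretin, was the lower gene, at 31.7 in AOM/DSS colon and 72.8 in naive colon. Ang5, Mptx2, Reg3a, Clps and Habp2 were not listed.

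The listed regulators of the lineage went both ways. Of 22 transcription factors and niche genes, 11 were higher, 5 were lower and 6, including Sox9 and Gfi1, were not listed (median 0.75). That is 11 of 16 listed genes, where 57.3% of all listed genes were higher. None of these regulators was at 0 in naive colon, unlike 10 of the listed Paneth products. Tcf7l2, the TCF factor of the intestinal Wnt pathway, had 123 in AOM/DSS colon and 184 in naive colon. Xbp1, a factor of the secretory unfolded-protein response, had 210 in AOM/DSS colon and 102.1 in naive colon, and Csf1r and Cd24a were likewise higher at 274 and 250.7 in AOM/DSS colon, against 138 and 146 in naive colon. Of 21 Wnt targets and crypt-base genes, which include Mmp7, 18 were higher, 0 were lower and 3 were not listed (median 2.21). Without Mmp7, which could be listed only as higher, 17 were higher and 0 were lower (median 1.91). The feedback inhibitor Nkd1 had 240 in AOM/DSS colon and 29.7 in naive colon, the secreted inhibitor Wif1 had 190 in AOM/DSS colon and 1.93 in naive colon, and the target Prox1 had 159 in AOM/DSS colon and 2.77 in naive colon.

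Other antimicrobial genes were mostly higher in AOM/DSS colon where listed, and the families of Pla2g2a and Mmp7 went both ways. Among all listed genes, 57.3% were higher. Of 30 other defensins and antimicrobial genes, 13 were higher, 2 were lower and 15 were not listed (median 3.22). Slpi, an antiprotease, had 796 in AOM/DSS colon and 22.1 in naive colon, the peptidoglycan-binding Pglyrp1 had 635 in AOM/DSS colon and 139 in naive colon, and the goblet-cell lectin Zg16 had 537 in AOM/DSS colon and 1128 in naive colon. The beta-defensins Defb4 and Defb3 had 8.34 and 3.77 in AOM/DSS colon and were at 0 in naive colon, so their direction was fixed by the listing. Of 22 phospholipase A2 genes, which include Pla2g2a, 10 were higher, 6 were lower and 6 were not listed (median 0.62). Without Pla2g2a, 9 of 15 listed genes were higher (median 0.61), near the share of all listed genes. Plaat3 had 144 in AOM/DSS colon and 92.7 in naive colon, Pla2g10 had 84.3 in AOM/DSS colon and 119 in naive colon, and Pla2g7 had 50.6 in AOM/DSS colon and 19.8 in naive colon. Of 27 metalloproteinases and inhibitors, which include Mmp7, 10 were higher, 4 were lower and 13 were not listed (median 2.56). Without Mmp7, which could be listed only as higher, 9 were higher and 4 were lower (median 2.26). Mmp14 had 158 in AOM/DSS colon and 55.5 in naive colon, Mmp2 had 108 in AOM/DSS colon and 59.7 in naive colon, and the inhibitor Timp2 had 208 in AOM/DSS colon and 282 in naive colon.

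**Figure D4:**
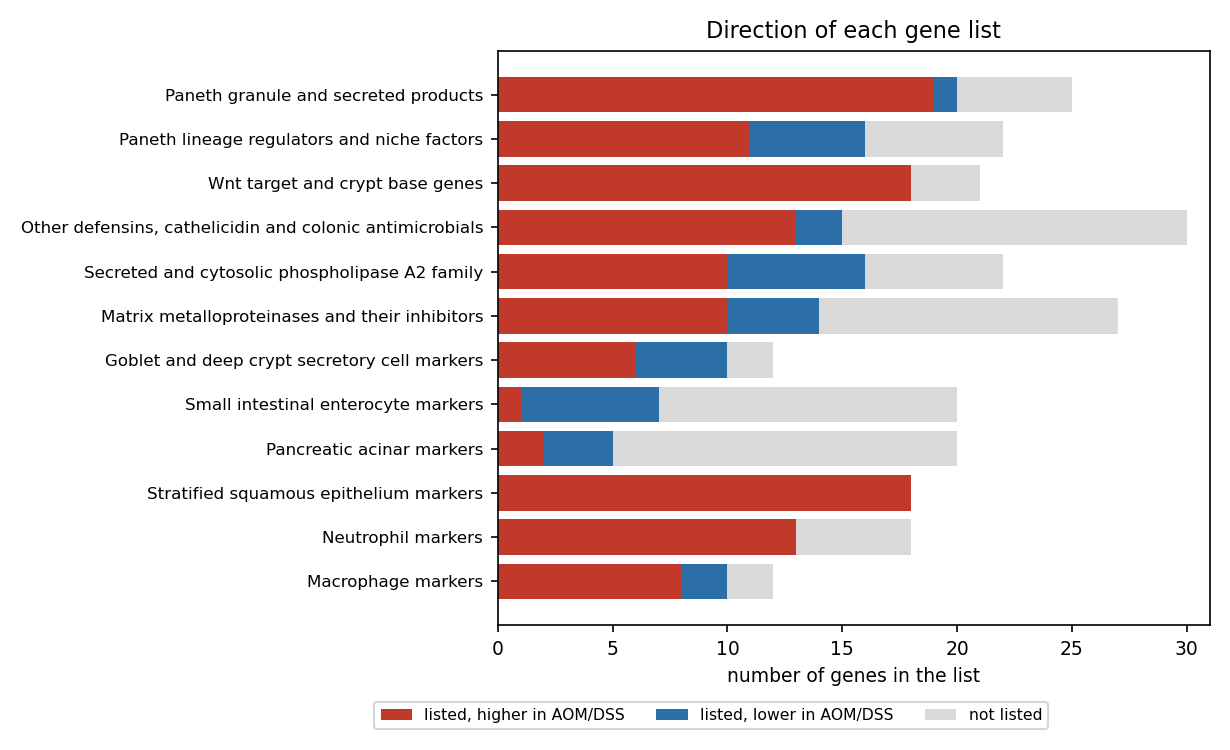
The number of genes of each of 12 lists that were listed with the higher mean in AOM/DSS (red), listed with the lower mean in AOM/DSS (blue) or not listed (grey). The Paneth product list has 19 higher and 1 lower gene, and the small-intestinal enterocyte list 1 higher and 6 lower genes. Of the Paneth products, 10 were at 0 in naive colon and could be listed only as higher.

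Markers of other cells also differed between the group means. All 18 markers of stratified squamous epithelium were higher, as were 57.3% of all listed genes. Of these 18, 4 were at 0 in naive colon, so their direction was fixed by the listing. The summed means of the 18 were 1996 in AOM/DSS colon and 11.6 in naive colon (median 5.05). Krt13 led at 440 in AOM/DSS colon and 0.148 in naive colon, followed by Krt5 at 233 in AOM/DSS colon and 0.266 in naive colon. Krt4 had 219 in AOM/DSS colon and 0.0536 in naive colon, and Krt6b, Sprr3 and Ivl had 112, 30.7 and 0.753 in AOM/DSS colon and were at 0 in naive colon. Of 18 neutrophil markers 13 were higher and 5 were not listed (median 3.15), with summed means of 1190 in AOM/DSS colon and 13.2 in naive colon. Ltf, the granule protein lactoferrin, had 176 in AOM/DSS colon and 0.214 in naive colon, and Mmp9 had 54.7 in AOM/DSS colon and 6.39 in naive colon. Ngp and Stfa2 had 3.31 and 0.282 in AOM/DSS colon. Both were at 0 in naive colon, so their direction too was fixed by the listing. Of 12 macrophage markers 8 were higher, 2 were lower and 2 were not listed (median 1.16), among them C1qa at 447 in AOM/DSS colon and 169 in naive colon and C1qb at 247 in AOM/DSS colon and 87.2 in naive colon. The part of these cells in the means of the Paneth-type genes was not tested.

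Markers of absorptive cells of the small intestine were mostly lower in AOM/DSS colon or not listed. Of 20 small-intestinal enterocyte markers 1 was higher, 6 were lower and 13, among them Apoa1, Apoa4, Sis and Lct, were not listed (median -0.87). Alpi, the intestinal alkaline phosphatase, was the higher gene, at 0.526 in AOM/DSS colon and 0.0561 in naive colon. The maltase Mgam had 123 in AOM/DSS colon and 175 in naive colon, the glucose transporter Slc5a1 had 65.3 in AOM/DSS colon and 120 in naive colon, and Fabp6, an ileal bile-acid binding protein, had 10.1 in AOM/DSS colon and 17.9 in naive colon. Of 20 pancreatic acinar markers 2 were higher, 3 were lower and 15 were not listed (median -1.07). Sycn, a zymogen granule protein, had 185 in AOM/DSS colon and 2045 in naive colon, Cela1 had 125 in AOM/DSS colon and 541 in naive colon, and Pnliprp1 had 65.1 in AOM/DSS colon and 1.60 in naive colon. Of 12 goblet and deep crypt secretory markers, 6 were higher, 4 were lower and 2 were not listed (median 0.57). That is 6 of 10 listed genes, near the 57.3% of all listed genes that were higher. The secretory Spink4 had 1215 in AOM/DSS colon and 315 in naive colon, the mucin Muc2 had 1058 in AOM/DSS colon and 529 in naive colon, and Clca1 had 468 in AOM/DSS colon and 1003 in naive colon, so goblet-cell transcripts of the colon were abundant in both groups.

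**Figure D5:**
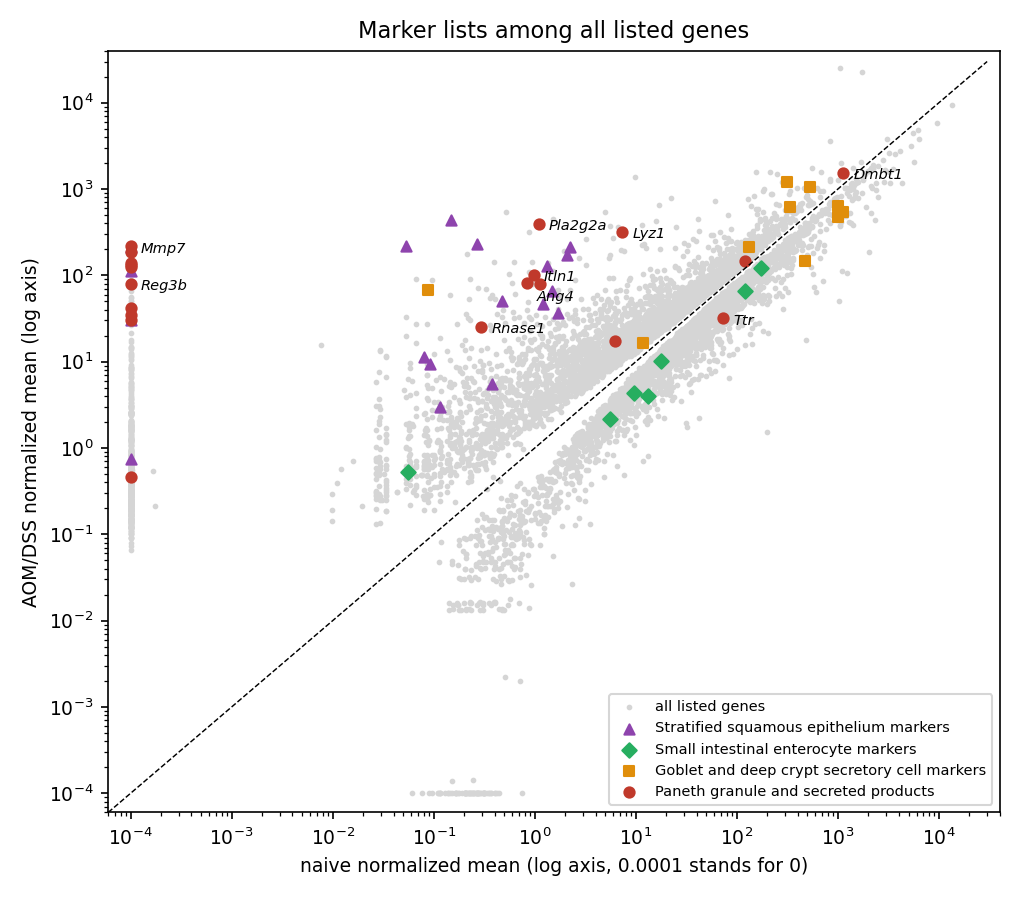
The authors' AOM/DSS mean against the naive mean for all 7868 listed genes (grey) with 4 marker lists in colour, both axes log, 0.0001 standing for 0 and the dashed line marking equal means. Most Paneth products (red circles), such as Pla2g2a at 398 in AOM/DSS colon and 1.09 in naive colon, lie far above the line. Dmbt1, Nupr1 and Guca2b, with AOM/DSS to naive ratios of 1.37, 1.20 and 2.75, lie nearer to the line, and Ttr lies below it. The small-intestinal enterocyte markers (green) lie below the line except Alpi, and the empty band along the line comes from the listing limit.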

How the data were processed

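RNA of colonic tumor tissue from 7 AOM/DSS mice and of colon from 4 naive mice was sequenced as QuantSeq 3′ libraries. Read trimming, STAR alignment to mm10, counting against an Ensembl annotation, normalization of the counts and the group comparison were done by the authors in Partek Flow. The submitters' processing notes name Partek, STAR and cutadapt. For the normalization method and the handling of reads that match several genes, nothing was given in the sources used here.

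The deposited table holds the authors' least-squares mean of each group on their normalized scale, with a p-value, an adjusted p and a fold by the authors for each gene. These 3 comparison columns were not used, except that the deposited p-value was read to find the listing limit (highest 0.0500). No values per mouse were used, so no test, SD or replicate analysis was made. A mean below 0.001 was taken as 0 and given no fold. Log2 ratios carry 1 added to both means, which understates the ratio of low genes, unless stated otherwise. Genes were called higher or lower at a ratio of 2 where a fold is named and at any size otherwise. The summed listed means were 554058 in AOM/DSS and 547024 in naive colon, and the depth per library was not analysed here beyond the value of 1 read inferred from the lowest means, a step added after seeing the data.

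The members, gene lists and promoter motifs were chosen with earlier results of these data known. Named genes were all members, the 3 listed genes nearest to a member over both log2 means, and from each list up to 4 genes with the highest mean and those at 0 in a group. Other genes named were chosen after their values were seen. GENCODE M21 names matched 7727 listed genes, and RefSeq symbols matched 7358. Protein sequences were not used. Scripts used Python 3.11.15, pandas 2.3.3 and numpy 2.4.6, and the ratio calls were tested on simulated data.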

Additional observations from a re-analysis of the deposited data

How the results depend on the processing

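No paired analysis was possible because the table holds 1 mean per group, and for the same reason leaving out replicates could not be run. Other pseudocounts, filters and ratio limits gave 204 recomputed values. No log2 ratio changed its sign, but adding the same value to both means cannot change the sign for a single gene. Only centring could have done so there. Of the 204 values, 124 stayed within 1.5 times of the value given, where log2 ratios were compared as unlogged ratios and not as log2 values. These 124 include every centred value, because a shift of 0.36 in log2 is too small to pass this limit. The sizes of ratios of genes at or near 0 in naive colon depended on the value added to both means. With 0.1 added in place of 1, the log2 ratio was 13.28 for the summed defensins, 11.08 for Mmp7 and 8.39 for Pla2g2a. With 10 added, it was 6.68 for the summed defensins, 4.51 for Mmp7, 5.20 for Pla2g2a and 4.25 for Lyz1. With no value added, it was 8.51 for Pla2g2a. The share of listed genes at least 2-fold higher in AOM/DSS became 19.5% at a ratio of 4 and 20.9% with 1 added to both means. The share at least 2-fold lower became 5.66% at a ratio of 4 and 9.75% with 1 added. Centring on the median of all listed genes lowers every log2 ratio by 0.36, so that the smallest come close to 0, as for Defa35 at 0.032 and the phospholipase A2 median at 0.26. The table gives no spread between mice, and the ends of many defensin copies are shared.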

Other observations

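The serine protease gene Prss22, outside the Paneth group, had a mean of 89.0 in AOM/DSS colon and was at 0 in naive colon. It was chosen after its value was seen.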
